A study of Homo sapiens with 4 samples.

Results

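Antisense long non-coding RNAs and the genes they lie opposite to were compared in the established human lung cancer cell line H1792 after 96 h with ACBI1 or with the solvent DMSO. The RNA-seq count tables list 61228 genes, of which 1817 carry a symbol that ends in -AS and a digit. The 220 of these with a mean over all 4 libraries of at least 2 CPM (counts per 1000000 gene counts) are described here as the antisense genes. They were chosen by their level in these libraries, so the level itself is no result. The change between treatments was not itself a criterion, but the mean pools both groups. A gene below 2 CPM in 1 group could therefore enter through the other. Of the 12 largest called rises, PIK3CD-AS2, DDX11-AS1, DGUOK-AS1, PRKAG2-AS1, SP2-AS1 and MELTF-AS1 were below 2 CPM in both DMSO libraries. Of the 12 largest called falls, SLC30A4-AS1, C1QTNF1-AS1, STEAP1B-AS1, IRF1-AS1, PPP1R14B-AS1, NAV2-AS6, ATP2B1-AS1, ST20-AS1 and BBOX1-AS1 were below it in both ACBI1 libraries. USP2-AS1 and DDN-AS1 were above 2 CPM in all 4 libraries. How far this shaped which genes changed most was not tested. Just inside the limit were FBXL19-AS1 at 2.002 CPM and PPP1R14B-AS1 at 2.02 CPM, and just outside were ZNF295-AS1 at 1.99 CPM and DNAJC9-AS1 at 1.98 CPM. Among the 1597 genes below the limit, 1097 had a count in at least 1 library.

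The sense partner is the gene whose symbol stands before -AS. A partner was listed for 218 antisense genes (216 distinct partners), and HOXA-AS2 and HOXB-AS1, named after gene clusters, had none. All 220 antisense genes and 196 of the 216 partners passed the filter on low counts, which gave 197 pairs with both genes tested. In 21 pairs the partner was listed but too rare to be tested.

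Antisense genes are transcribed from the strand opposite to another gene. Many start beside the promoter of that gene and run away from it, others begin inside or beyond it and cross its body, and they are known to act in several ways or in none: on chromatin at their own locus, through pairing with the sense RNA, by transcription through the partner, or as RNAs with targets elsewhere. Many are quickly degraded by the nuclear exosome. SWI/SNF complexes move nucleosomes at promoters and enhancers, and ACBI1 is a PROTAC that brings SMARCA2, SMARCA4 and PBRM1 of these complexes to the VHL ubiquitin ligase for degradation. The labels give the genotype of all cells as WT and the dose of ACBI1 as 1 mM, a unit that could not be checked from counts. Each group had 2 libraries. The labels do not say whether these came from separate cultures, so p-values measure only the spread between these libraries. A single value compared between 2 and 2 libraries cannot reach an exact permutation p below 0.333, and tests were therefore fitted across all genes.

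The DMSO libraries held 85037263 and 73238474 gene counts (replicates 1 and 2) and the ACBI1 libraries 86010100 and 64281850. The epithelial keratins KRT8, KRT18 and KRT7 were present in every library at 58.7 to 680.4 CPM and were lower with ACBI1. KRT19 was at 3.44 and 5.00 CPM with DMSO and 0.961 and 0.503 CPM with ACBI1. EPCAM, an epithelial surface protein, was at 5.38 and 2.78 CPM with DMSO and 15.6 and 4.84 CPM with ACBI1, with overlapping groups and no call (log2 change 1.32, adjusted p 0.179). CDH1, the adhesion molecule of epithelia, was at or below 0.222 CPM throughout. Of 8 markers of leucocytes, endothelium and liver, 6 stayed at or below 0.101 CPM. The endothelial gene PECAM1 was at 12.2 and 48.1 CPM with DMSO and 0.0112 and 0.0458 CPM with ACBI1, and VWF at 0.295 and 0.320 CPM with DMSO and 0 with ACBI1. The part of these markers in the results below was not tested. In RNA from whole cultures, fewer cells of a kind and less RNA per cell cannot be told apart.

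Whether the counting used the strand is not stated, so reads of a gene and its antisense partner cannot be told apart for certain where exons overlap. The counts themselves bear on this. Of 18 protein-coding genes with at least 95% of their exonic length under exons of the opposite strand only, 2 (11.1%) were at 0 in all libraries, against 18.8% of 11053 coding genes without any exonic overlap. Where exons of the same strand covered at least 95%, 244 of 278 coding genes (87.8%) were at 0. The median over the 18 genes was 0.0248 counts per exonic base in all libraries together, beside 0.272 over the coding genes without overlap and 0 over the 278. Of coding genes with 50% to 95% under exons of the opposite strand only, 8.33% of 120 were at 0 and the median was 0.512. Over genes of all types, 40.9% of 776 with at least 95% under exons of the opposite strand only were at 0. The share was 54.8% of 40320 genes without exonic overlap and 95.3% of 1082 covered to at least 95% on the same strand only. The strand setting was not settled by these values. How many reads of a sense gene were given to the antisense gene by error was not measured.

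The 6 windows printed next are promoters shared by both genes of a pair, 1 for each combination with at least 1 gene called that occurred among such pairs, so that the stretch from which both RNAs start can be seen beside the values. RefSeq (GRCh38.p14) had a window from 250 bases before to 50 bases after the start for 173 of the 220 antisense genes. The windows of antisense and sense gene overlapped in 47 of 153 pairs with both, and in 37 pairs the antisense start lay inside the sense window with the 2 genes running apart. From these 37, the pair with the largest change in ratio was taken for each combination, a choice made after the values were seen. The strand is that of the sense gene, and the capitals run from the antisense start to the sense start. ATP2B1 (chr12:89708789-89709088 on the minus strand) and ATP2B1-AS1 both fell. TUBA1B (chr12:49131346-49131645 on the minus strand) and TUBA1B-AS1 both rose. In the next 2 pairs the antisense gene alone was called, lower at PPP1R14B (chr11:64246894-64247193 on the minus strand) and higher at ZNF232 (chr17:5111829-5112128 on the minus strand). In the last 2 the sense gene alone was called, lower at CNIH3 (chr1:224616067-224616366 on the plus strand) and higher at URB1 (chr21:32392963-32393262 on the minus strand).
ATP2B1: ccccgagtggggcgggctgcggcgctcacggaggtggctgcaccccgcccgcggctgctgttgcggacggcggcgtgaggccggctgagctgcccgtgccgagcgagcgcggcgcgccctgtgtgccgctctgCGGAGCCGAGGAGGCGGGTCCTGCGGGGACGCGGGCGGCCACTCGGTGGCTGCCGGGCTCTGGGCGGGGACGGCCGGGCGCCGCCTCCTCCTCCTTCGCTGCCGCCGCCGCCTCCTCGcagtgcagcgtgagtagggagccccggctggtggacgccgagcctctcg
TUBA1B: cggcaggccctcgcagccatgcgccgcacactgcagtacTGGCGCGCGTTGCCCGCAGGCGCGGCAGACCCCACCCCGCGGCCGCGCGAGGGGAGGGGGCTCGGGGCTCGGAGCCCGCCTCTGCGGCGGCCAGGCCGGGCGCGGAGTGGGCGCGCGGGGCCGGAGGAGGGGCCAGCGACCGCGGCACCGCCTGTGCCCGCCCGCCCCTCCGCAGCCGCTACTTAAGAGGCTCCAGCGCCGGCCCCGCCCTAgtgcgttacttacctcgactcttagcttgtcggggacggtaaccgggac
PPP1R14B: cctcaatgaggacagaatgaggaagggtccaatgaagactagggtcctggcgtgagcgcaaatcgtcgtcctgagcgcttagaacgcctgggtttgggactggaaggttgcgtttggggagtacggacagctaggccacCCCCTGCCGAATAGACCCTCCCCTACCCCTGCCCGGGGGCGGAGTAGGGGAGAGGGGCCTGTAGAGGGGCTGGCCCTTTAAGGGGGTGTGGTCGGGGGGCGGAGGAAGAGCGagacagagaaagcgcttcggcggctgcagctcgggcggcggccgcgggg
ZNF232: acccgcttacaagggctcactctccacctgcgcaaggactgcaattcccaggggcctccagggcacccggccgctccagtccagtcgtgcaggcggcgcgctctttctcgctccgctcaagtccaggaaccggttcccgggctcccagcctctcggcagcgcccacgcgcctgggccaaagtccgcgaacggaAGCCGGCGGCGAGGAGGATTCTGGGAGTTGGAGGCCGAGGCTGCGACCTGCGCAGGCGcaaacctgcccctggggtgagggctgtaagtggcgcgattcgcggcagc
CNIH3: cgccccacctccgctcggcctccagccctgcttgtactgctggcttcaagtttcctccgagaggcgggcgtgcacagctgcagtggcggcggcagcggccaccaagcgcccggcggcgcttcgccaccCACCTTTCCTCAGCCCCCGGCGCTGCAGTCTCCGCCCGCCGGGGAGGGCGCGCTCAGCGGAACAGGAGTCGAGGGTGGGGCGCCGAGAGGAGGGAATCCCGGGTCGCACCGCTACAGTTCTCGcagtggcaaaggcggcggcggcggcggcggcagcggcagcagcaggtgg
URB1: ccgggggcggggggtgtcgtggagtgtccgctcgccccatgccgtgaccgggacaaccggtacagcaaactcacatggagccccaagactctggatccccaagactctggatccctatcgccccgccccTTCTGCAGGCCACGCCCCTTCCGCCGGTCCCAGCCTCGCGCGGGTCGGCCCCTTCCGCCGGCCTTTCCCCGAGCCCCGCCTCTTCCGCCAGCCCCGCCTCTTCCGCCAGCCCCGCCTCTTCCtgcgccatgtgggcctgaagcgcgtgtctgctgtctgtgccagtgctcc

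The starts in these windows lay 57 bases (ZNF232) to 211 bases (TUBA1B) apart. All 6 windows were rich in G and C, from 65.3% in PPP1R14B to 79.3% in ATP2B1, with 22 to 45 CpG dinucleotides. None held the TATA box letters TATAAA or the AP-1 motif TGANTCA on either strand. PPP1R14B alone held a CCAAT box (CCAAT), and all but ZNF232 held the GC box letters GGGCGG. The same was counted over all 216 windows of the 173 antisense genes, some of which have several. Their median GC content was 65.5% and their median number of CpG was 25, beside 58.7% and 14 over all 35116 RefSeq windows. TATAAA was found in 4.63% of the antisense windows and 11.5% of all windows, and GGGCGG in 61.1% and 45.0%. TGANTCA was found in 7.87% and 7.71%. The partners' 293 windows had a median GC content of 65.0% and held TATAAA in 7.17%. The antisense genes were chosen by their level in these libraries, whereas all RefSeq windows include genes at any level. The part of this choice in the differences was not tested. A match of letters is a description of the window and not a site.

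With ACBI1, antisense genes were called about as often as genes in general by the main test, though not in every setting (see the last section). Of the 220, 23 rose, among them PIK3CD-AS2, FAM222A-AS1, USP2-AS1 and DDX11-AS1, and 16 fell, among them SLC30A4-AS1, C1QTNF1-AS1, STEAP1B-AS1 and IRF1-AS1 (edgeR's quasi-likelihood test, Benjamini-Hochberg adjusted p under 0.05 over 19159 genes). Where no other test is named, a call of a gene is a call by this test. These 39 calls are 17.7% of the antisense genes, beside 17.4% of all tested genes and 20.6% of the 12565 tested genes that also reached a mean of 2 CPM. Rises made up more of the calls among the antisense genes than in the background: 6.75% of all tested genes were called higher and 10.6% lower, and of those at 2 CPM or more 8.64% and 11.9%. The difference in that split was not tested. The median log2 change of the antisense genes was 0.05 (all tested genes 0.01), with quartiles of -0.42 and 0.51, and 22.7% of them changed by at least 1 in size on the log2 scale (all tested genes 22.6%).

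Both ACBI1 libraries lay on 1 side of both DMSO libraries for 129 antisense genes (58.6%), against 63.2% of all tested genes and 67.1% of those at 2 CPM or more. Together the antisense genes held 0.206% of gene counts in each DMSO library, and 0.246% and 0.227% in the ACBI1 libraries. The partners had 18 rises and 25 falls among 196 tested (21.9%), with a median log2 change of 0.02. Antisense genes below 2 CPM had 10 rises and 34 falls among 515 tested (8.54%). Genes named -DT, transcripts that diverge from a promoter, had 19 rises and 9 falls among 358 tested (7.82% called). Genes named LINC, which lie between genes, had 11 rises and 50 falls among 390 tested (15.6%). Of all tested genes 17.4% were called, 6.75% higher and 10.6% lower.

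The calls depended on single libraries. Leaving out DMSO replicate 1 kept 32 of the 39 calls, DMSO replicate 2 kept 22, ACBI1 replicate 1 kept 20 and ACBI1 replicate 2 kept 23. None of the 39 changed sign or moved by more than 1.5 times in its log2 change. Only part of the 39, SLC30A4-AS1 and PIK3CD-AS2 among them, were called in all 4 of these fits.

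**Figure D1:**
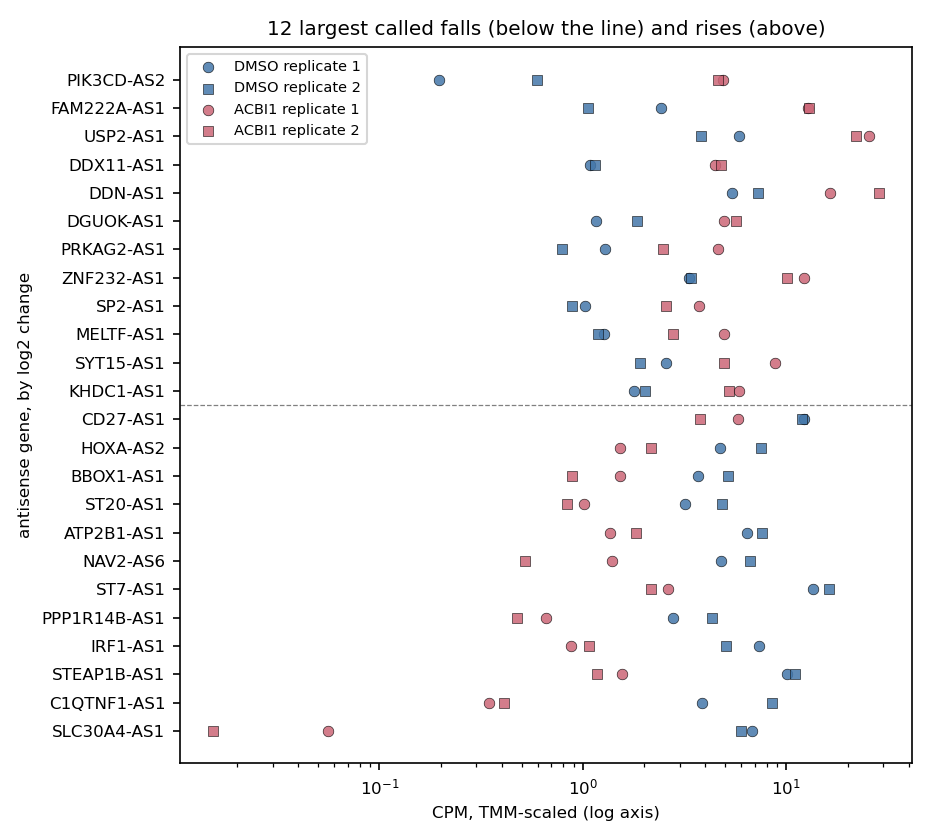
CPM (TMM-scaled, log axis) in each library of the 12 called rises and 12 called falls with the largest log2 change; circles and squares are replicates 1 and 2, blue DMSO and red ACBI1. In all 24 genes both ACBI1 libraries lie on 1 side of both DMSO libraries, and SLC30A4-AS1 lies furthest apart, from 5.98 CPM or more with DMSO to 0.0559 CPM or less with ACBI1.

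Among the falls, SLC30A4-AS1 (chr15:45448427-45513767, plus strand, GENCODE 29 on GRCh38) was close to lost. Its counts were 555 and 430 with DMSO and 5 and 1 with ACBI1, or 6.82 and 5.98 CPM with DMSO and 0.0559 and 0.0153 CPM with ACBI1. The groups lay far apart, and the log2 change was -7.34 (SE 0.54, adjusted p 0.00228), a size that rests on those 6 counts. Its partner SLC30A4, which encodes a zinc transporter, moved the opposite way, with 1.99 and 4.53 CPM with DMSO and 21.6 and 27.3 CPM with ACBI1 and a log2 change of 2.91 (SE 0.42, adjusted p 0.00980). This was the 1 pair among 10 with both genes called in which the directions were opposite. The 2 genes start 63226 bases apart, and 3.45% of the antisense exonic length lies over exons of SLC30A4.

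C1QTNF1-AS1 and IRF1-AS1 fell together with their partners. C1QTNF1-AS1 was at 3.87 and 8.51 CPM with DMSO and 0.346 and 0.412 CPM with ACBI1, a log2 change of -4.03 (SE 0.50, adjusted p 0.00687). C1QTNF1, a secreted protein related to complement C1q and TNF, was at 508 and 386 CPM with DMSO and 112 and 69.8 CPM with ACBI1, a log2 change of -2.30 (SE 0.29, adjusted p 0.00688). Their exons do not overlap.

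IRF1-AS1 (chr5:132410636-132488702) was at 7.32 and 5.06 CPM with DMSO and 0.871 and 1.07 CPM with ACBI1, a log2 change of -2.68 (SE 0.35, adjusted p 0.00770). IRF1, an interferon-regulated transcription factor that induces antiviral and antigen presentation genes, was at 172 and 124 CPM with DMSO and 34.1 and 28.7 CPM with ACBI1, a log2 change of -2.23 (SE 0.22, adjusted p 0.00396). Neither gene's groups overlapped. The ratio of the 2 RNAs changed by -0.43 (SE 0.33, adjusted p 0.430) on the log2 scale and was not called, and 17.6% of the exonic length of IRF1-AS1 lies over exons of IRF1.

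At NAV2, ST7 and ATP2B1 the antisense gene starts within 1 kb of the sense gene, and both fell. NAV2-AS6 was at 4.79 and 6.63 CPM with DMSO and 1.40 and 0.519 CPM with ACBI1, and NAV2, a microtubule-associated protein of neuronal outgrowth, was at 102 and 105 CPM with DMSO and 21.2 and 13.9 CPM with ACBI1. Their log2 changes were equal at 2 decimals, -2.56 (SE 0.52, adjusted p 0.0253) and -2.56 (SE 0.24, adjusted p 0.00346). At ST7 and ATP2B1 the antisense gene fell by more than its partner.

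ST7-AS1 was at 13.5 and 16.1 CPM with DMSO and 2.63 and 2.17 CPM with ACBI1 (log2 change -2.63, SE 0.26, adjusted p 0.00403), and ST7 at 19.4 and 22.9 CPM with DMSO and 9.82 and 12.6 CPM with ACBI1 (log2 change -0.92, SE 0.22, adjusted p 0.0384). ATP2B1-AS1 was at 6.37 and 7.56 CPM with DMSO and 1.36 and 1.83 CPM with ACBI1 (log2 change -2.13, SE 0.32, adjusted p 0.0107), and ATP2B1, a calcium pump of the plasma membrane, at 282 and 239 CPM with DMSO and 157 and 152 CPM with ACBI1 (log2 change -0.75, SE 0.17, adjusted p 0.0330). The antisense-to-sense ratio fell by 1.70 (SE 0.32, adjusted p 0.0196) on the log2 scale for ST7 and by 1.38 (SE 0.34, adjusted p 0.0389) for ATP2B1. The calls of SLC30A4-AS1, C1QTNF1-AS1, IRF1-AS1, NAV2-AS6, ST7-AS1 and ATP2B1-AS1 held with every library left out. The falls of the partners ST7 and ATP2B1 did not: ST7 kept its call only without DMSO replicate 1 (log2 change -0.80, -0.75 and -1.12 without DMSO replicate 2, ACBI1 replicate 1 and ACBI1 replicate 2), and ATP2B1 only without DMSO replicate 2 (-0.63, -0.77 and -0.74 without DMSO replicate 1, ACBI1 replicate 1 and ACBI1 replicate 2).

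In STEAP1B, PPP1R14B and ST20 the antisense gene fell and the partner was not called. STEAP1B-AS1, which lies within STEAP1B, was at 10.1 and 11.01 CPM with DMSO and 1.55 and 1.17 CPM with ACBI1, a log2 change of -2.95 (SE 0.29, adjusted p 0.00403). STEAP1B, a relative of the STEAP metalloreductases, was at 12.5 and 12.4 CPM with DMSO and 17.2 and 19.8 CPM with ACBI1, with a log2 change of 0.57 (SE 0.19, adjusted p 0.0944) and no overlap between groups. Their ratio fell by 3.53 (SE 0.33, adjusted p 0.00121) on the log2 scale, and 37.6% of the antisense exonic length lies over exons of STEAP1B.

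PPP1R14B-AS1 was at 2.78 and 4.32 CPM with DMSO and 0.659 and 0.473 CPM with ACBI1, a log2 change of -2.64 (SE 0.41, adjusted p 0.0118). PPP1R14B, an inhibitor of protein phosphatase 1 whose shared promoter is printed above, was at 177 and 201 CPM with DMSO and 208 and 225 CPM with ACBI1 and had a log2 change of 0.19 (SE 0.17, adjusted p 0.465). ST20-AS1 fell from 3.17 and 4.82 to 1.02 and 0.839 CPM, and ST20 itself stayed below 1 CPM in all libraries. The call of ST20-AS1 (log2 change -2.10, adjusted p 0.0168) was lost without ACBI1 replicate 2 (log2 change -1.98).

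For the next 3 falls no partner could be tested. BBOX1-AS1 was at 3.68 and 5.14 CPM with DMSO and 1.53 and 0.885 CPM with ACBI1 (log2 change -1.86, SE 0.40, adjusted p 0.0293), while BBOX1, an enzyme of carnitine synthesis, had 0 counts in all libraries. CD27-AS1 was at 12.2 and 11.95 CPM with DMSO and 5.76 and 3.78 CPM with ACBI1 (log2 change -1.33, SE 0.29, adjusted p 0.0286), and CD27, a TNF receptor of lymphocytes, was at or below 0.0860 CPM. HOXA-AS2, which lies in the HOXA cluster of homeobox genes, was at 4.70 and 7.52 CPM with DMSO and 1.52 and 2.15 CPM with ACBI1 (log2 change -1.74, SE 0.37, adjusted p 0.0290). These 3 calls were lost without 1 or more libraries: BBOX1-AS1 without DMSO replicate 2 (-1.60) or ACBI1 replicate 2 (-1.54), HOXA-AS2 without DMSO replicate 2 (-1.36) or ACBI1 replicate 1 (-1.50), and CD27-AS1 without ACBI1 replicate 2 (-1.07).

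Among the rises, PIK3CD-AS2 (chr1:9672426-9687555, minus strand) changed most. It was at 0.196 and 0.598 CPM with DMSO and 4.88 and 4.62 CPM with ACBI1, a log2 change of 3.59 (SE 0.56, adjusted p 0.0118). PIK3CD, the catalytic subunit delta of phosphoinositide 3-kinase, was at 20.1 and 18.03 CPM with DMSO and 14.1 and 7.73 CPM with ACBI1, with a log2 change of -0.80 (SE 0.31, adjusted p 0.131) that was not called. Their exons do not overlap, and the ratio rose by 4.63 (SE 0.59, adjusted p 0.00516) on the log2 scale. Per kb of exon, the antisense RNA went from 0.141 to 2.94 times the level of PIK3CD, so that the order of the 2 RNAs turned over.

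FAM222A-AS1 was at 2.43 and 1.06 CPM with DMSO and 12.7 and 12.99 CPM with ACBI1, a log2 change of 2.88 (SE 0.43, adjusted p 0.0108). FAM222A was at 1.84 and 4.49 CPM with DMSO and 4.74 and 8.28 CPM with ACBI1, and its log2 change of 1.04 (SE 0.50, adjusted p 0.205) was not called. All libraries of a group lay apart from those of the other group in both genes, and the change in ratio was not called (adjusted p 0.133).

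USP2-AS1, DDN-AS1, GBX2-AS1 and TUBA1B-AS1 rose together with their partners, and in each pair the starts lay within 1 kb. USP2-AS1 was at 5.83 and 3.81 CPM with DMSO and 25.3 and 21.99 CPM with ACBI1 (log2 change 2.29, SE 0.27, adjusted p 0.00636), and USP2, a deubiquitinating enzyme, at 10.5 and 14.5 CPM with DMSO and 29.2 and 27.8 CPM with ACBI1 (log2 change 1.19, SE 0.22, adjusted p 0.0189). DDN-AS1 was at 5.38 and 7.24 CPM with DMSO and 16.4 and 28.4 CPM with ACBI1 (log2 change 1.83, SE 0.33, adjusted p 0.0178), and DDN, which encodes dendrin of podocytes and dendrites, at 4.51 and 1.96 CPM with DMSO and 10.7 and 11.8 CPM with ACBI1 (log2 change 1.80, SE 0.42, adjusted p 0.0359). GBX2-AS1 was at 1.93 and 1.43 CPM with DMSO and 3.55 and 5.03 CPM with ACBI1 (log2 change 1.35, SE 0.35, adjusted p 0.0472), and GBX2, a homeobox transcription factor, at 2.75 and 2.28 CPM with DMSO and 9.92 and 8.47 CPM with ACBI1 (log2 change 1.87, SE 0.28, adjusted p 0.0104). None of these groups overlapped, and none of the 4 ratios was called.

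Per kb of exon, TUBA1B-AS1 was at 0.00881 times the level of TUBA1B with DMSO and 0.0115 times with ACBI1. It was at 1.81 and 1.47 CPM with DMSO and 3.84 and 3.84 CPM with ACBI1 (log2 change 1.23, SE 0.31, adjusted p 0.0434), and TUBA1B, an alpha tubulin, at 441 and 374 CPM with DMSO and 690.4 and 770.3 CPM with ACBI1 (log2 change 0.84, SE 0.18, adjusted p 0.0302). Exons of TUBA1B cover 80.2% of the antisense exonic length, and there were 0.409 and 0.394 antisense counts per 100 sense counts with DMSO and 0.557 and 0.499 with ACBI1. Whether reads of TUBA1B were counted for TUBA1B-AS1 was not tested. Its call was lost with any of the 4 libraries left out (log2 change 1.09 to 1.38), and that of GBX2-AS1 held only without DMSO replicate 1 (log2 change 1.15, 1.59 and 1.07 without DMSO replicate 2, ACBI1 replicate 1 and ACBI1 replicate 2). Among the partners, TUBA1B was called only without DMSO replicate 1 (log2 change 0.73, 0.92 and 0.75 without the other libraries in the same order), USP2 was lost without ACBI1 replicate 1 (1.16), and DDN without ACBI1 replicate 1 (1.87) or ACBI1 replicate 2 (1.72).

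Of the 12 largest rises, 10 had a partner that was not called or not tested, PIK3CD-AS2 and FAM222A-AS1 among them. DDX11-AS1 was at 1.08 and 1.15 CPM with DMSO and 4.46 and 4.79 CPM with ACBI1 (log2 change 2.05, SE 0.30, adjusted p 0.0108), opposite DDX11, a DNA helicase of sister chromatid cohesion, whose log2 change was 0.99 (SE 0.27, adjusted p 0.0524). ZNF232-AS1 was at 3.32 and 3.39 CPM with DMSO and 12.2 and 10.1 CPM with ACBI1 (log2 change 1.73, SE 0.25, adjusted p 0.0103), while ZNF232, a zinc finger protein, was at 11.5 and 12.4 CPM with DMSO and 14.1 and 15.5 CPM with ACBI1 (log2 change 0.31, SE 0.20, adjusted p 0.320). Both antisense rises held with every library left out. DGUOK-AS1 was at 1.17 and 1.85 CPM with DMSO and 4.95 and 5.64 CPM with ACBI1 (log2 change 1.81, SE 0.35, adjusted p 0.0222), opposite DGUOK, the mitochondrial deoxyguanosine kinase, whose groups overlapped (log2 change -0.12).

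PRKAG2-AS1, SP2-AS1, MELTF-AS1, SYT15-AS1 and KHDC1-AS1 had log2 changes of 1.77, 1.72, 1.66, 1.62 and 1.54, with adjusted p of 0.0468, 0.0272, 0.0369, 0.0375 and 0.0203. Their partners are PRKAG2, a regulatory subunit of AMP-activated kinase, the transcription factor SP2, the iron-binding melanotransferrin gene MELTF, the synaptotagmin gene SYT15 and KHDC1. SYT15 was at or below 0.0139 CPM and was not tested. PRKAG2 (log2 change 0.68, adjusted p 0.0527), SP2 (-0.05, 0.888), MELTF (0.21, 0.483) and KHDC1 (0.55, 0.302) were not called.

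Each of those 5 antisense calls, and that of DGUOK-AS1, was lost without some library. Without DMSO replicate 1 the call of MELTF-AS1 was lost (1.71). Without DMSO replicate 2 those of PRKAG2-AS1 (1.46), SP2-AS1 (1.63), MELTF-AS1 (1.61) and SYT15-AS1 (1.42) were lost. Without ACBI1 replicate 1 the same 4 (1.25, 1.43, 1.18 and 1.15) and KHDC1-AS1 (1.47) were lost, and without ACBI1 replicate 2 that of DGUOK-AS1 (1.71). All these values are log2 changes.

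Antisense and sense gene moved the same way in about as many pairs as they moved opposite ways. Of 197 pairs, 98 (49.7%, exact 95% binomial interval 42.6% to 56.9%, which covers counting only and treats pairs as independent) had log2 changes of the same sign. Pearson's r across pairs was 0.127 and Spearman's rho 0.187, over genes from the same 4 libraries. Consecutive tested genes in the genome shared a sign in 55.8% of 18301 pairs, and genes on opposite strands with starts within 1 kb, both protein coding, in 53.8% of 1484. Of pairs with such starts in which 1 gene is named -DT, 65.0% of 346 shared a sign. All 656 pairs of an antisense gene at any level and its partner, with both tested, shared a sign in 56.1%. Pearson's r over these sets of comparison pairs was 0.212, 0.190, 0.325 and 0.406, in the order given. These shares were not tested against each other. That of the 197 pairs moved with the setting, to 55.3% with library size only and to between 52.3% and 56.3% with a library left out.

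The pairs were also split by how the 2 genes lie, and the shares were not tested against each other. In 131 pairs the genes ran from starts within 1 kb of each other on opposite strands, and 66 (50.4%) shared a sign with an r of 0.306 and a rho of 0.278. In 53 pairs that overlapped in another way, SLC30A4 among them, 26 (49.1%) shared a sign with an r of -0.04 and a rho of 0.047. Inside the partner, 4 of 9 (44.4%) shared a sign, and without overlap 2 of 3 (66.7%). Where no exon of the pair overlapped, 26 of 49 (53.1%) shared a sign, and where at least 50% of the antisense exonic length lay over exons of the partner, 8 of 11 (72.7%). By arrangement, 15 rises and 8 falls occurred among the 132 antisense genes with starts within 1 kb (17.4% called). There were 7 and 6 among 68 with another overlap (19.1%), and 1 and 1 among 13 inside the partner (15.4%). These shares lie near the 17.4% of all tested genes.

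**Figure D2:**
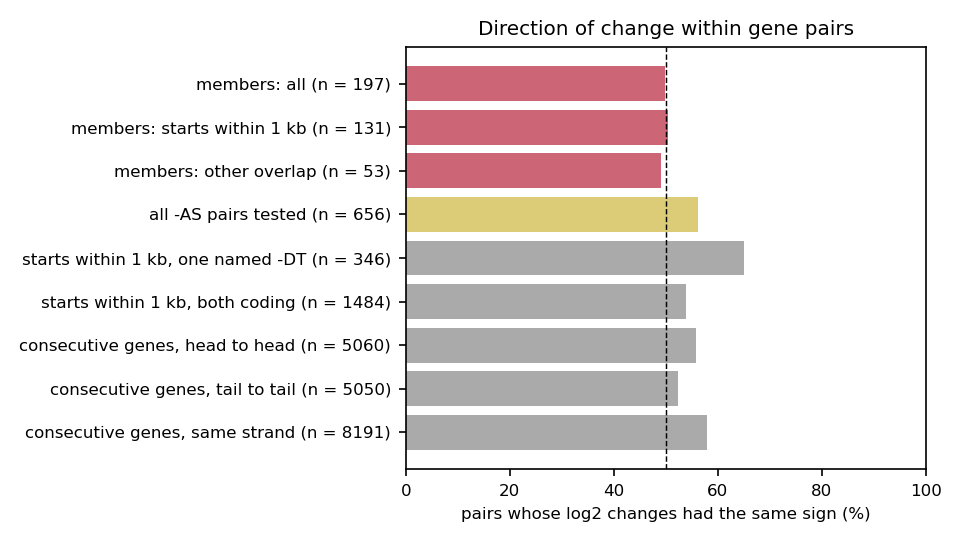
Share of gene pairs (%) in which the log2 changes of both genes had the same sign; red bars are the antisense pairs, yellow all tested -AS pairs, grey other neighbouring genes, and the dashed line marks 50%. The red bars lie at 49.1% to 50.4% and the grey bars at 52.4% to 65.0%. The share over all antisense pairs depended on the setting: it was 55.3% with library size only and 52.3% to 56.3% with a library left out.

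The antisense gene was called in 34 of the 197 pairs and the sense gene in 43. Whether joint calls were more or fewer than these numbers alone would give was not tested. Both were called in 10 of 197 pairs, of which 4 rose together, 5 fell together and SLC30A4 went opposite ways. In 24 pairs only the antisense gene was called, in 33 only the sense gene, and in 130 neither. A missing call does not show that a gene did not change. DESeq2 called both genes in 21 pairs, 20 of them in the same direction, and edgeR without the filter on low counts in 22, again 20 in the same direction. With a library left out, the pairs with both called in the same direction were 11 of 12 without DMSO replicate 1, 7 of 8 without DMSO replicate 2, 3 of 5 without ACBI1 replicate 1 and 4 of 5 without ACBI1 replicate 2.

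**Figure D3:**
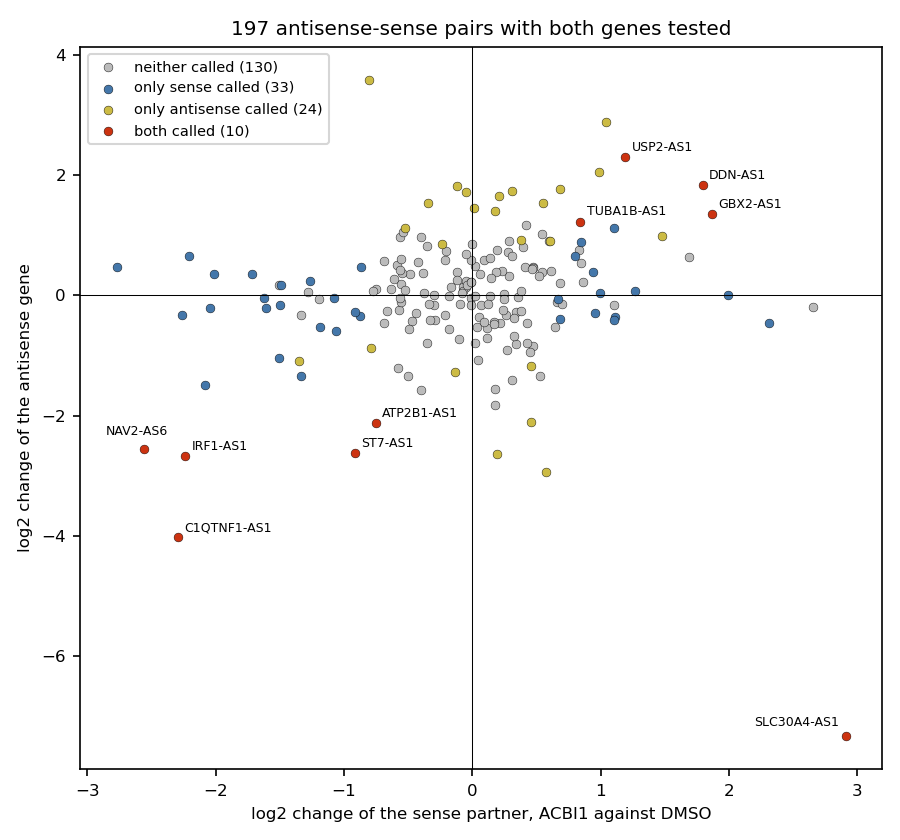
Log2 change with ACBI1 of each antisense gene (vertical) against that of its sense partner (horizontal) in the 197 pairs with both tested; colours give which of the 2 was called, and the 10 pairs with both called are labelled. The points lie on both sides of 0 on both axes, and SLC30A4-AS1 lies alone at the lower right, at -7.34 against 2.91.

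The ratio of antisense to sense counts within a library needs no scaling between libraries and tests whether both genes changed alike. It was called in 40 of 197 pairs (20.3%; limma on the log2 ratio, adjusted over the 656 pairs), beside 13.0% of all 656 pairs tested. The 656 pairs include the 197, and the others have an antisense gene below 2 CPM. Tested antisense genes below 2 CPM were also called less often by edgeR, 8.54% beside 17.7% of the 220. In 22 of the 197 pairs the ratio rose and in 18 it fell. Of all 656 pairs, the ratio rose in 48 (7.32%) and fell in 37 (5.64%). Of the 22 rises, 9 had an antisense gene that rose beside a partner not called, 11 had a partner that fell beside an antisense gene not called, and 2 had neither called. Among the 18 falls, 6 had a partner that rose beside an antisense gene not called, 3 had an antisense gene that fell beside a partner not called, 6 had neither called, and 3 had both called. Without DMSO replicate 1, DMSO replicate 2, ACBI1 replicate 1 and ACBI1 replicate 2, 37, 32, 30 and 30 of the 40 ratios were called.

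**Figure D4:**
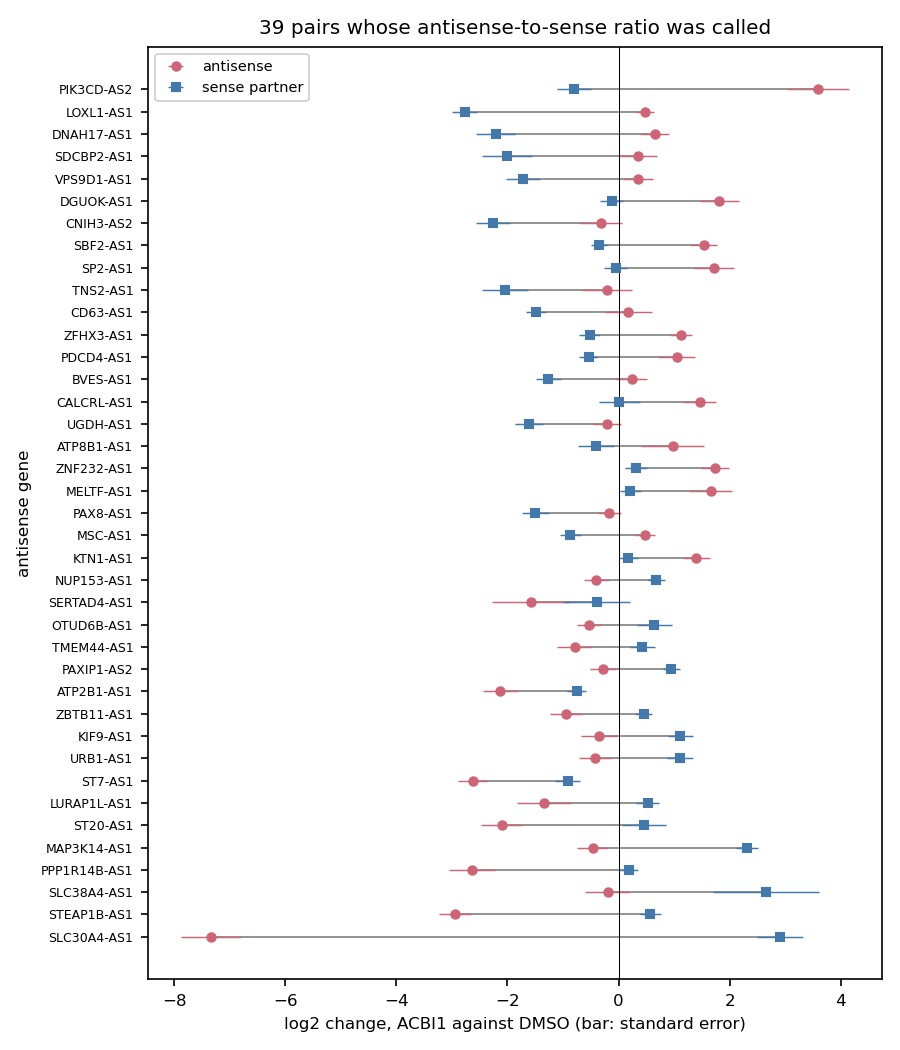
Log2 change with ACBI1 of the antisense gene (red circle) and its sense partner (blue square), with standard errors, in 39 of the 40 pairs whose ratio was called, ordered by the change in ratio. PIK3CD-AS2 is at the top, 4.63 higher in log2 ratio, and SLC30A4-AS1 at the bottom, 10.43 lower.

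In 11 of the 22 pairs whose ratio rose, the partner fell while the antisense gene was not called. LOXL1, a lysyl oxidase that cross-links elastin, was at 197 and 272 CPM with DMSO and 37.5 and 31.3 CPM with ACBI1 (log2 change -2.77, SE 0.23, adjusted p 0.00252). LOXL1-AS1, which starts within 1 kb of it, was at 20.4 and 19.5 CPM with DMSO and 29.04 and 26.4 CPM with ACBI1 (log2 change 0.47, SE 0.17, adjusted p 0.104) and was not called. The ratio rose by 3.23 (SE 0.31, adjusted p 0.00121) on the log2 scale.

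Other partners of this kind were VPS9D1, DNAH17, SDCBP2, CNIH3 and MSC. VPS9D1 was at 20.8 and 37.4 CPM with DMSO and 8.26 and 9.43 CPM with ACBI1 (log2 change -1.72, SE 0.31, adjusted p 0.0179), beside VPS9D1-AS1 at 88.7 and 53.4 CPM with DMSO and 80.5 and 101 CPM with ACBI1, whose groups overlapped. DNAH17, a dynein heavy chain of cilia and sperm tails, was at 3.16 and 2.95 CPM with DMSO and 0.748 and 0.564 CPM with ACBI1 (log2 change -2.21, SE 0.35, adjusted p 0.0127), beside DNAH17-AS1 at 9.62 and 6.59 CPM with DMSO and 13.03 and 12.5 CPM with ACBI1. The ratios rose by 2.05 (SE 0.49, adjusted p 0.0371) for VPS9D1 and 2.90 (SE 0.35, adjusted p 0.00495) for DNAH17.

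SDCBP2, a syntenin, was rare, at 0.712 and 0.584 CPM with DMSO and 0.179 and 0.137 CPM with ACBI1, and its call (log2 change -2.02, SE 0.45, adjusted p 0.0316) was lost with any library left out (-2.22 to -1.86). SDCBP2-AS1 was at 5.58 and 7.65 CPM with DMSO and 6.47 and 10.5 CPM with ACBI1. CNIH3, an auxiliary subunit of AMPA receptors, was at 25.8 and 45.9 CPM with DMSO and 7.24 and 7.67 CPM with ACBI1 (log2 change -2.26, SE 0.30, adjusted p 0.00823), beside CNIH3-AS2 at 1.78 and 3.09 CPM with DMSO and 1.82 and 2.07 CPM with ACBI1. The groups overlapped in both antisense genes. Per kb of exon, CNIH3-AS2 went from 0.634 to 2.44 times the level of CNIH3.

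At the other end, antisense genes that were not called stood beside partners that rose. MAP3K14, the NF-kB inducing kinase of the non-canonical pathway, was at 29.5 and 28.7 CPM with DMSO and 124 and 165 CPM with ACBI1 (log2 change 2.31, SE 0.20, adjusted p 0.00265), and MAP3K14-AS1 at 4.10 and 4.46 CPM with DMSO and 3.15 and 3.05 CPM with ACBI1 (log2 change -0.47, SE 0.28, adjusted p 0.292). The ratio fell by 2.76 (SE 0.31, adjusted p 0.00361) for MAP3K14 on the log2 scale.

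URB1, a factor of ribosome assembly whose window is printed above, was at 96.5 and 65.3 CPM with DMSO and 187 and 160.0 CPM with ACBI1 (log2 change 1.10, SE 0.23, adjusted p 0.0272). The call of URB1 was lost without ACBI1 replicate 1 (log2 change 0.99). URB1-AS1 was at 5.32 and 6.57 CPM with DMSO and 5.02 and 3.89 CPM with ACBI1 (log2 change -0.42, SE 0.29, adjusted p 0.361). For SLC38A4, an amino acid transporter, and LURAP1L neither gene of the pair was called by edgeR, while the ratio fell by 3.25 (SE 0.75, adjusted p 0.0343) and 1.76 (SE 0.40, adjusted p 0.0329). DESeq2 called LURAP1L-AS1 lower (log2 change -1.35), as did edgeR without the filter on low counts (-1.36). The libraries of SLC38A4 spread widely, at 0.209 and 1.47 CPM with DMSO and 2.49 and 8.05 CPM with ACBI1.

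Ratios that rose through the antisense gene included those of DGUOK-AS1 (1.96, SE 0.31, adjusted p 0.00932) and SBF2-AS1. SBF2-AS1, an RNA often studied in lung and other cancers, was at 9.62 and 9.37 CPM with DMSO and 32.8 and 21.99 CPM with ACBI1 (log2 change 1.53, SE 0.24, adjusted p 0.0128) and was called with every library left out. SBF2, a relative of the myotubularin phosphatases, was at 83.5 and 73.7 CPM with DMSO and 62.02 and 61.5 CPM with ACBI1 (log2 change -0.35, SE 0.15, adjusted p 0.171). Per kb of exon, SBF2-AS1 went from 0.436 to 1.60 times the level of SBF2.

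Levels were compared between genes only per kb of exonic length. Of 218 pairs, the antisense RNA was above the sense RNA in 87 with DMSO and 79 with ACBI1, and in 71 with both. The antisense RNA came to be above in 8 pairs and the sense RNA in 16. Over the tested pairs the median antisense level was 0.344 times that of the partner with DMSO and 0.413 times with ACBI1. Most antisense genes were rare: 100 lay at 2 to 5 CPM, 99 at 5 to 20 CPM and 21 at 20 CPM or more.

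None of the 5 most abundant antisense RNAs was called. OIP5-AS1 (chr15:41283990-41309737), known as cyrano and as a binding partner of microRNAs, was at 145 and 138 CPM with DMSO and 142 and 151 CPM with ACBI1. Its groups overlapped, and its log2 change was 0.05 (SE 0.15, adjusted p 0.860). OIP5, a protein of centromere assembly, was at 9.03 and 9.22 CPM with DMSO and 16.03 and 20.4 CPM with ACBI1, a log2 change of 1.00 (SE 0.22, adjusted p 0.0299). Its call held only without DMSO replicate 1 (log2 change 1.01, 1.16 and 0.81 without DMSO replicate 2, ACBI1 replicate 1 and ACBI1 replicate 2).

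FGD5-AS1 was at 80.9 and 75.7 CPM with DMSO and 89.6 and 95.1 CPM with ACBI1, with a log2 change of 0.24 (SE 0.15, adjusted p 0.316), while FGD5, an exchange factor of endothelium, was at or below 0.0112 CPM. EPB41L4A-AS1 was at 59.5 and 44.6 CPM with DMSO and 68.01 and 49.6 CPM with ACBI1 with overlapping groups, and EPB41L4A was at or below 0.0973 CPM. MSC-AS1 was at 50.8 and 42.5 CPM with DMSO and 72.1 and 56.95 CPM with ACBI1 (log2 change 0.47, SE 0.19, adjusted p 0.142), and MSC, the repressor musculin, at 591 and 753 CPM with DMSO and 361 and 375 CPM with ACBI1 (log2 change -0.87, SE 0.19, adjusted p 0.0313). Without DMSO replicate 2, ACBI1 replicate 1 or ACBI1 replicate 2 the call of MSC was lost (-0.68, -0.84 and -0.91).

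Of 37 listed genes on a list of much studied antisense RNAs, 16 were among the 220, and 2 of these were called: SBF2-AS1, which rose, and HOXA-AS2, which fell. That is 12.5%, beside 17.7% of all 220 and 17.4% of all tested genes. The median log2 change of the 16 was 0.34. FOXD2-AS1 was at 6.71 and 3.57 CPM with DMSO and 12.3 and 10.9 CPM with ACBI1 (log2 change 1.17, SE 0.35, adjusted p 0.0672), TMPO-AS1 at 12.9 and 13.1 CPM with DMSO and 19.8 and 21.3 CPM with ACBI1 (log2 change 0.66, SE 0.18, adjusted p 0.0558) and MCM3AP-AS1 at 6.30 and 7.13 CPM with DMSO and 10.02 and 15.04 CPM with ACBI1 (log2 change 0.90, SE 0.28, adjusted p 0.0756). The groups did not overlap in these 3. None was called by edgeR, and DESeq2 called all 3 higher. TMPO, a lamina-associated protein, was at 213 and 195 CPM with DMSO and 348 and 363 CPM with ACBI1 and was called (log2 change 0.80, SE 0.16, adjusted p 0.0254), which held only without DMSO replicate 1 (0.74, 0.83 and 0.76 without DMSO replicate 2, ACBI1 replicate 1 and ACBI1 replicate 2).

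ZEB1-AS1, SLC16A1-AS1, MAPKAPK5-AS1, TTN-AS1, HOXB-AS1, TRAF3IP2-AS1 and NR2F1-AS1 had log2 changes of 0.22, 0.37, 0.32, 0.18, 0.42, -0.04 and -0.06, with adjusted p from 0.310 to 0.944. Of these 7, only MAPKAPK5-AS1 had groups that did not overlap.

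The machinery that degrades or senses such RNAs was read from lists. Of 23 genes of the nuclear exosome and its adaptors, 3 rose and 0 fell by edgeR's test, with a median log2 change of 0.43. These calls are 13.0% of the list, below the 17.4% of all tested genes. At an unadjusted edgeR p under 0.05 there were 7 rises and 1 fall, and DESeq2 called 5 rises and 1 fall. MPHOSPH6, an exosome-associated protein, was at 15.95 and 11.97 CPM with DMSO and 31.6 and 29.9 CPM with ACBI1 (log2 change 1.14, SE 0.21, adjusted p 0.0181). EXOSC2, a core subunit, was at 45.1 and 33.1 CPM with DMSO and 70.6 and 66.9 CPM with ACBI1 (log2 change 0.81, SE 0.19, adjusted p 0.0384), and SRRT, also called ARS2, which links the cap-binding complex to decay, at 103 and 98.7 CPM with DMSO and 144 and 168 CPM with ACBI1 (log2 change 0.63, SE 0.16, adjusted p 0.0478). No groups overlapped. All 3 calls depended on single libraries: MPHOSPH6 was lost without ACBI1 replicate 1 (1.10), EXOSC2 was called only without DMSO replicate 1 (0.61, 0.78 and 0.84 without DMSO replicate 2, ACBI1 replicate 1 and ACBI1 replicate 2), and SRRT was lost with any of the 4 libraries left out (0.51 to 0.74).

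Of 21 tested genes that edit, process or sense double-stranded RNA, 5 fell and 0 rose by edgeR's test, with a median log2 change of -0.12. These calls are 23.8% of the list, beside 17.4% of all tested genes called and 10.6% called lower. At an unadjusted edgeR p under 0.05 there were 6 falls and 3 rises, and DESeq2 called 6 falls and 2 rises. The receptor TLR3 was at 13.3 and 14.2 CPM with DMSO and 2.13 and 2.35 CPM with ACBI1 (log2 change -2.62, SE 0.25, adjusted p 0.00357). OAS2, an interferon-induced synthetase that activates RNase L, was at 1.55 and 1.39 CPM with DMSO and 0.223 and 0.153 CPM with ACBI1 (log2 change -2.94, SE 0.42, adjusted p 0.00966). DHX58, a helicase of the RIG-I family, was at 2.73 and 2.45 CPM with DMSO and 0.514 and 0.336 CPM with ACBI1 (log2 change -2.59, SE 0.39, adjusted p 0.0109), and OAS1 at 1.73 and 1.83 CPM with DMSO and 0.469 and 0.198 CPM with ACBI1 (log2 change -2.39, SE 0.49, adjusted p 0.0259). The fall of OAS1 was not called without ACBI1 replicate 2 (-1.93).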

How the data were processed

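RNA-seq of 4 H1792 libraries (2 DMSO, 2 ACBI1) was deposited by the authors as raw counts per gene. TopHat2 2.1.1, HTSeq 0.11.0 and hg38 are named in the submitters' processing notes; annotation, strand setting and the use of each tool are not given in the sources used here. Rows without a gene were left out; ambiguous reads were 4.41% to 5.07% of the reads listed. Groups and replicates come from the titles.

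Counts were filtered with filterByExpr (minimum count 10, minimum total count 15), scaled by TMM and tested with edgeR 4.0.16 (quasi-likelihood, two-sided, treatment only) in R 4.3.3, with Benjamini-Hochberg adjustment over 19159 genes. CPM are TMM-scaled, except for the membership rule. Ratios are log2((antisense count + 0.5)/(sense count + 0.5)), tested with limma 3.58.1 with the prior variance trended on the rarer gene. GENCODE 29 gave positions for 56963 genes matched by name or ID; RefSeq GRCh38.p14 gave sequences. DESeq2 1.42.0, limma-voom, other scalings, filters and thresholds, the replicate block and leaving out each library were alternatives. Scripts were tested on simulated data.

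The members and lists were chosen with earlier results of these data known. Named are the 5 most abundant members, the 12 largest called rises and falls, members of the list of much studied RNAs, pairs with both genes called, the 8 largest called ratio changes each way and the 2 members nearest to 2 CPM on each side, with their partners, and up to 4 called genes of each other list. URB1 was named after its values were seen. The result of 1 pair that this rule names is not reported here.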

Additional observations from a re-analysis of the deposited data

How the results depend on the processing

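With 2 libraries a group, the number of calls depended on the setting more than the changes did. The main counts were 23 antisense genes higher and 16 lower, 18 partners higher and 25 lower, 1294 genes higher and 2037 lower, and 22 ratios higher and 18 lower. At a threshold of 0.01 the first 6 became 1, 5, 4, 7, 172 and 611. Testing every gene with a count gave 30 antisense genes higher and 31 lower, 31 partners higher and 40 lower, 2202 genes higher and 3316 lower. DESeq2 gave 33 antisense genes higher and 30 lower. Without the filter, 27.7% of the antisense genes were called, beside 16.8% of all 32871 genes then tested. With DESeq2 the shares were 28.6% and 23.5%. The genes set beside the antisense genes in both settings include many below 2 CPM, and shares over genes at 2 CPM or more are not given. With a mean of at least 1 CPM required for testing, 18.6% of the antisense genes and 20.8% of 13802 genes were called. Among antisense genes of at least 5 CPM, 12 were higher and 7 lower, and among those with under 10% exonic overlap 12 and 5, since fewer genes remain. Without the trend 7 ratios were higher and 6 lower, the cause of which was not tested, and with under 10% exonic overlap of both genes 9 and 6. With a library left out, antisense genes higher ranged from 9 to 22 and lower from 11 to 23, partners higher from 9 to 23 and lower from 16 to 26, genes higher from 531 to 1434 and lower from 1151 to 2365, and ratios higher from 24 to 30 and lower from 16 to 25; the group left with 1 library was assumed to vary like the other. The share of pairs with the same sign ranged from 52.3% to 56.3% in those fits and was 55.3% with library size only. All 39 antisense calls were also made with DESeq2 size factors, without the filter on counts, with a minimum mean of 1 CPM, with DESeq2, limma-voom and the replicate block, and 37 with library size only. Library size only moved the median log2 change of all genes from 0.01 to 0.09 and that of the antisense genes from 0.05 to 0.13.

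The labels do not say that replicate numbers pair libraries. The deviations of DMSO and ACBI1 replicate 1 from their group means correlated at 0.442 over 19159 genes. With 2 libraries a group, replicate 2 mirrors replicate 1, so it gives the same value, and crossed numbers give -0.442. A single value of this kind does not establish a pairing. With the replicate number as a block, 50 antisense genes were called higher and 42 lower (41.8%, beside 41.3% of all genes), 49 partners higher and 59 lower, 3708 genes higher and 4201 lower, and 54 ratios, 39 of the 40 among them. Both genes were then called in 50 pairs, 30 of them in the same direction, beside 10 and 9 without the block.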
